A study of Mus musculus with 6 samples.

Results

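The kinesin genes of the mouse were followed in sorted cells of the embryonic cortex that carried a hairpin for the microRNA miR-3607 or a scrambled hairpin. Members were all protein-coding genes whose symbol is Kif followed by a digit, with at least 10 counts in 3 or more of the 6 libraries. The tables of 54146 genes held 39 protein-coding genes with such a symbol, and 34 of them passed. They comprised 12 mitotic and centrosomal kinesins, 15 cargo and neurite kinesins, 6 ciliary and other kinesins, and Kif1bp, a kinesin-binding protein that matches the symbol but is not a motor. The other 3 genes with a matching symbol are not protein-coding and were left out.

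The Mir group carried psil-pre-miR3607, a plasmid that expresses a miR-3607 precursor from the U6 promoter, at 1 µg/µl. The Scr group carried psil-pre-miRScr, the vector's negative control hairpin, at the same 1 µg/µl. Both groups also received pCAG-GFP, a plasmid for green fluorescent protein, at 0.7 µg/µl, and no library came from cells without plasmid. The cortex of wild-type embryos was electroporated in utero at E14.5 (embryonic days are written with an E), and GFP-positive cells were sorted 24 hours later, at E15.5. Each of the 3 libraries per group held the pooled cells of 2 embryos, so p-values measure the spread between pools. On strain the labels disagree, with ICR in the protocol but C57BL/6 among the characteristics. Electroporation marks cells that lined the ventricle and their early offspring, so a library mixes progenitors with newborn neurons. The labels call the cells cortical progenitors, and over the 6 libraries the summed level was 1691 to 3131 CPM for 12 radial glia markers and 4838 to 7660 CPM for 12 markers of cortical neurons, where CPM is a gene's counts per 1000000 counts in genes. In such bulk samples, fewer cells of a type and less RNA per cell cannot be told apart.

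Kinesins are motor proteins that use ATP to move along microtubules or to take their ends apart. In dividing cells a set of them builds the spindle, aligns and separates the chromosomes and completes the cut between the daughter cells. In neurons other kinesins carry vesicles, mitochondria and RNA along axons and dendrites or trim growing processes, and a further set works in cilia. The developing cortex uses both kinds side by side, since progenitors divide at the ventricle while their offspring extend processes and migrate.

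Between 14671557 and 15847663 counts fell in genes in a Mir library, and between 12724511 and 16684038 in an Scr library. Levels are given in CPM, with replicates always in the order 1, 2, 3. Fold changes compare Mir with Scr as log2 ratios, each with its standard error, and come from edgeR's quasi-likelihood test with Benjamini-Hochberg adjustment over 16897 genes. That test called 0 genes higher in Mir (0%) and 1 gene lower (0.00592%, Ftl2-ps), and no kinesin was called. The smallest adjusted p of a kinesin in edgeR's quasi-likelihood test was 0.218, for Kif5c. At an unadjusted p under 0.05 the test passed 10 kinesins higher and 1 lower in Mir, against 6.57% higher and 7.93% lower among all genes. In DESeq2, tried as an alternative, 1.6% of genes were called higher and 2.21% lower in Mir, and 1 kinesin, Kif5c, was called lower.

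**Figure D1:**
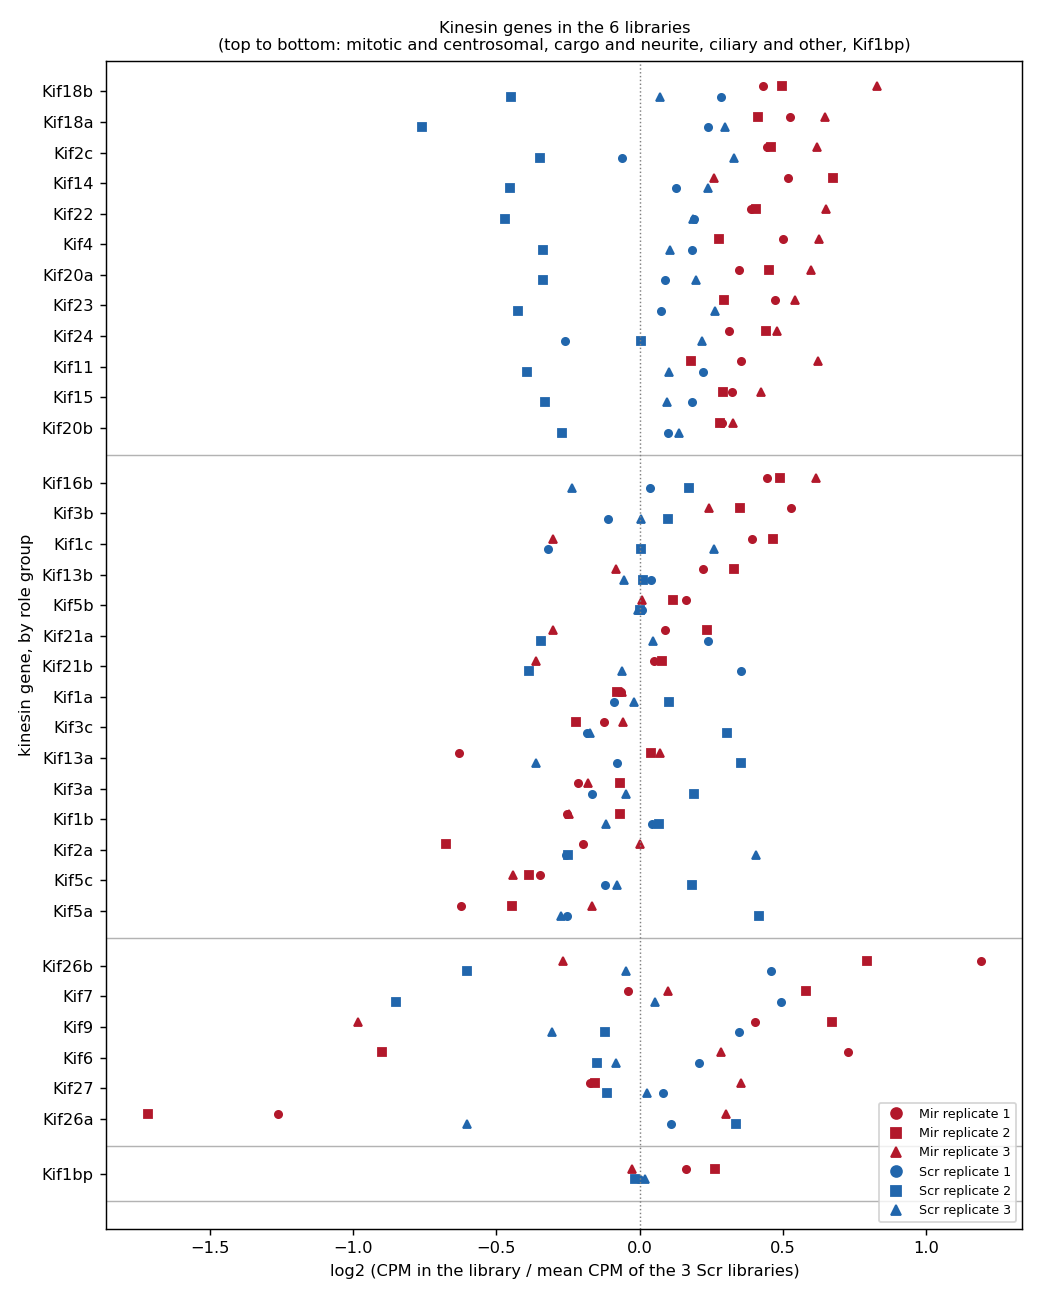
Log2 ratio of each library's CPM to the mean CPM of the 3 Scr libraries (horizontal axis) for the 34 kinesin genes (vertical axis), ordered by fold change within role groups. Red symbols are the 3 Mir libraries and blue symbols the 3 Scr libraries, with a shape per replicate number. All 3 Mir libraries lie to the right of all 3 Scr libraries for 11 of the 12 mitotic and centrosomal kinesins and for 3 of the 15 cargo and neurite kinesins. Among all genes tested, 9.9% showed that separation.

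All 12 mitotic and centrosomal kinesins had a higher fitted level in Mir libraries, where the log2 fold changes had a median of 0.47 and a range of 0.30 to 0.60. The median over all genes tested was -0.01, and 48.8% of them had a higher fitted level in Mir. None of the 12 was called by edgeR's quasi-likelihood test after adjustment, and 8 had an unadjusted p under 0.05. The 3 Mir libraries lay above the 3 Scr libraries for 11 of the 12 genes, where 9.9% of all genes showed that separation. Since these genes share the same 6 libraries and the same dividing cells, they do not count as 12 separate observations. Summed over the 12 genes, the level was 1427, 1395 and 1629 CPM in the Mir libraries against 1189, 821 and 1236 CPM in the Scr libraries. Scr replicate 2 was the lowest library for 11 of the 12 genes, and Mir replicate 3 was the highest for 11. Without Scr replicate 2 the median log2 fold change was 0.31, and without both Scr replicate 2 and Mir replicate 3 it was 0.24, with all 12 genes still higher in Mir. Single genes lay between 0.18 (Kif20b) and 0.42 (Kif18b) without Scr replicate 2. For 7 of the 12 that was a move of over 1.5 times, to 0.24 for Kif11, 0.31 for Kif14, 0.21 for Kif15, 0.26 for Kif18a, 0.18 for Kif20b, 0.30 for Kif22 and 0.27 for Kif23. The count of genes with no overlap was 11 without those 2 libraries, beside 23.9% of all genes.

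Sums of progenitor markers overlapped between the groups, with 2 of 3 Mir sums above all Scr sums for either type. The mean was higher in Mir for 12 of 12 radial glia markers, whose summed level was 2400, 2919 and 3131 CPM in Mir and 2346, 1691 and 2441 CPM in Scr. It was higher in Mir for 8 of 8 markers of intermediate progenitors, the dividing cells that arise from radial glia, with sums of 2882, 3334 and 2312 CPM in Mir and 2327, 1501 and 2058 CPM in Scr. All Mir libraries lay above all Scr libraries for 1 of the 12 radial glia markers and 4 of the 8 intermediate progenitor markers, beside 9.9% of all genes. None of the markers was called by edgeR. DESeq2 called 1 radial glia marker and 3 intermediate progenitor markers higher in Mir, beside 1.6% of all genes. The part of progenitor content in the kinesin levels was not tested.

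**Figure D2:**
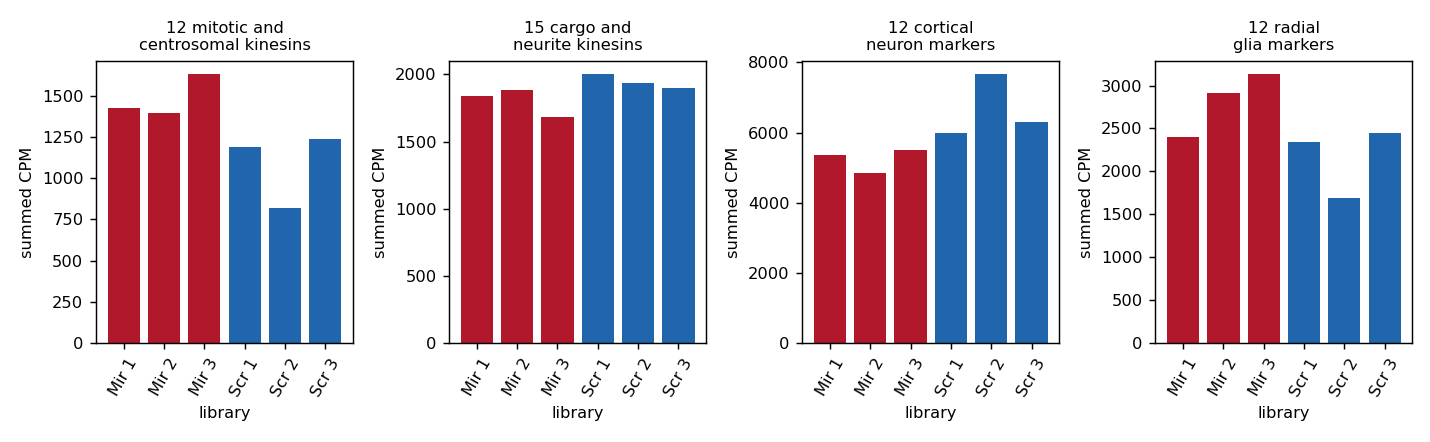
Summed CPM per library (vertical axes, each from 0) of the 12 mitotic and centrosomal kinesins, the 15 cargo and neurite kinesins, 12 cortical neuron markers and 12 radial glia markers. Red bars are the 3 Mir libraries and blue bars the 3 Scr libraries. The mitotic kinesin sums are 1395 to 1629 CPM in Mir and 821 to 1236 CPM in Scr, while the neuron marker sums are 4838 to 5506 CPM in Mir and 6002 to 7660 CPM in Scr.

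The promoters of the mitotic kinesins were read next, because the promoters of many genes of late cell cycle phases hold a cell cycle genes homology region (CHR), often near a CCAAT box. The CHR was searched by the letters TTTGAA alone, and variants of these letters were not searched. RefSeq promoters on GRCm38.p6, from 250 bases before to 50 after the start site, matched 28 of the 34 kinesin genes and 11 of the 12 mitotic ones. TTTGAA stood on either strand in 9 of these 11 promoters (81.8%), in 1 of 14 promoters of cargo and neurite kinesins (7.14%), in 2 of 7 of ciliary and other kinesins (28.6%) and in 17.9% of 32851 promoters in all. Within 50 bases of the start site, a distance chosen after the positions were seen, it stood in 7 of the 11 mitotic promoters (63.6%), in 1 of 14 cargo promoters (7.14%, Kif1a), in 1 of 7 ciliary promoters (14.3%, Kif26b) and in 4.94% of all promoters. CCAAT stood on either strand in 7 of the 11 mitotic promoters (63.6%), in 4 of the 14 cargo promoters (28.6%), in 3 of the 7 ciliary promoters (42.9%) and in 37.4% of all. Both motifs were present in 6 of the 11 mitotic promoters (54.5%), in 0 of the 14 cargo promoters, in 2 of the 7 ciliary promoters (28.6%) and in 6.95% of all promoters. The mitotic promoters with no TTTGAA were those of Kif18a and Kif24. Such a match is a description of the letters and not evidence of binding.

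The 7 mitotic stretches with TTTGAA near the start site show where these letters stand, and the start of Kif5c is set beside them as a promoter without them. They are 60 bases each, from RefSeq on GRCm38.p6, 5′ to 3′ on the strand of the gene. Capitals mark TTTGAA or its reverse complement TTCAAA, and CCAAT or its reverse complement ATTGG.
Kif11, chr19:37376336-37376395, plus strand: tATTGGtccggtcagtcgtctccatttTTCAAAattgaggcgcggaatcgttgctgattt
Kif15, chr9:122951035-122951094, plus strand: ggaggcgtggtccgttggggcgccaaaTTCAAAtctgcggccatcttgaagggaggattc
Kif18b, chr11:102925089-102925148, minus strand: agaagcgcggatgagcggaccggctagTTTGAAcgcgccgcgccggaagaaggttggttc
Kif20b, chr19:34922338-34922397, plus strand: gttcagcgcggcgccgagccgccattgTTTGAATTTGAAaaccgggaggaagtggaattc
Kif22, chr7:127042405-127042464, minus strand: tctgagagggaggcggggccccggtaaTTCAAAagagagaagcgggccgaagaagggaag
Kif23, chr9:61946765-61946824, minus strand: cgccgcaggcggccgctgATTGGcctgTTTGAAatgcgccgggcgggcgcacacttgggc
Kif4, chrX:100626055-100626114, plus strand: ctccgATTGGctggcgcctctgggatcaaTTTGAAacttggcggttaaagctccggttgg
Kif5c, chr2:49619256-49619315, plus strand: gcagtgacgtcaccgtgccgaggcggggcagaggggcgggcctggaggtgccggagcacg

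Among motors of the bipolar spindle, Kif11 slides microtubules apart to separate the spindle poles. Kif11 (ENSMUSG00000012443, chr19:37376403-37421859 on GRCm38, plus strand) had 169, 150 and 204 CPM in Mir and 154, 101 and 142 CPM in Scr. It was the single mitotic kinesin whose groups overlapped, since Mir replicate 2 lay below Scr replicate 1. Kif11 averaged 174 ± 27.4 CPM in Mir and 133 ± 28.1 CPM in Scr (SD, n = 3 each), a log2 fold change of 0.40 ± 0.17 at an adjusted p of 0.351 in edgeR's quasi-likelihood test. Kif15, a spindle motor that can stand in for Kif11, had 93.1, 91.2 and 100 CPM in Mir and 84.6, 59.2 and 79.7 CPM in Scr. Its lowest Mir library lay above its highest Scr library. The log2 fold change of Kif15 (chr9:122951046-123018733, plus strand) was 0.35 ± 0.13, with an adjusted p of 0.311 in edgeR's quasi-likelihood test.

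Chromosome arms and kinetochores are served by several kinesins of this set. Kif22, which binds chromosome arms and pushes them to the spindle's middle, had 268, 271 and 322 CPM in Mir and 233, 148 and 233 CPM in Scr. All Mir libraries of Kif22 lay above all Scr libraries, and Scr replicate 2 lay well below the other two. Kif22 (chr7:127027729-127042471, minus strand) differed by 0.49 ± 0.18 on the log2 scale, with an adjusted p of 0.289 in edgeR's quasi-likelihood test. Kif4, a chromosome-bound motor that also shapes the midzone of the spindle, had 105, 89.6 and 114 CPM in Mir and 83.9, 58.5 and 79.5 CPM in Scr. The groups did not overlap, and the gap between Mir replicate 2 and Scr replicate 1 was small. For Kif4 (chrX:100625737-100727214, plus strand) the log2 fold change was 0.48 ± 0.15, with an adjusted p of 0.256 in edgeR's quasi-likelihood test. For Kif4, 15.1% of exon bases overlap Pdzd11 on the opposite strand, so its counts are less certain.

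Kinesins that shorten microtubules or limit their growth belong to the same role group. Kif2c, which takes microtubule ends apart at kinetochores and corrects faulty attachments, had 153, 155 and 173 CPM in Mir and 108, 88.5 and 141 CPM in Scr. Its 3 Mir libraries lay above its 3 Scr libraries, and Scr replicate 3 came closest. Kif2c (chr4:117159639-117182639, minus strand) averaged 160 ± 10.9 CPM in Mir and 113 ± 26.8 CPM in Scr (SD, n = 3 each), with a log2 fold change of 0.51 ± 0.16 and an adjusted p of 0.260 in edgeR's quasi-likelihood test. Kif18b, which shortens astral microtubules at the spindle's outer ends, had 42.2, 44.2 and 55.6 CPM in Mir and 38.1, 22.9 and 32.9 CPM in Scr. Its Mir libraries all lay above its Scr libraries, and Scr replicate 2 was again the lowest. Kif18b had the largest fitted fold change of the 12, at 0.60 ± 0.20 on the log2 scale, and an adjusted p of 0.263 in edgeR's quasi-likelihood test. Its location is chr11:102905529-102925124, minus strand. Kif18a, which dampens the movement of chromosomes at the spindle's middle, ranged over 85.9 to 101 CPM in Mir and 38.0 to 79.3 CPM in Scr. Its log2 fold change was 0.53 ± 0.25, and its groups did not overlap.

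The kinesins of the midzone and of cytokinesis, the cut between daughter cells, included the gene with the highest level per kb of exon. Kif20a, which brings the chromosomal passenger complex to the midzone, had 255, 274 and 304 CPM in Mir and 213, 159 and 230 CPM in Scr. All Mir libraries lay above all Scr libraries. Kif20a averaged 277 ± 24.6 CPM in Mir and 200 ± 37.3 CPM in Scr (SD, n = 3 each), with a log2 fold change of 0.47 ± 0.14. Its p of 0.0119 was the smallest among the kinesins higher in Mir, and its adjusted p was 0.244 in edgeR's quasi-likelihood test. The kit used does not mark strand, and 29.3% of the exon bases of Kif20a overlap Cdc23 on the opposite strand, so reads of these genes cannot be told apart there.

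Kif23, the motor subunit of the centralspindlin complex that bundles midzone microtubules, had 150, 133 and 158 CPM in Mir and 114, 80.8 and 130 CPM in Scr. Its groups were separated by the narrow gap between Mir replicate 2 and Scr replicate 3. For Kif23 (chr9:61915905-61946774, minus strand) the log2 fold change was 0.44 ± 0.17, with an adjusted p of 0.311 in edgeR's quasi-likelihood test. Kif20b, an abscission kinesin whose loss in mice gives a small cortex, ranged over 73.0 to 75.3 CPM in Mir and 49.8 to 66.1 CPM in Scr. Its fold change of 0.30 ± 0.12 was the smallest of the 12. Kif14, a midbody motor needed for normal brain size, ranged over 13.6 to 18.2 CPM in Mir and 8.31 to 13.4 CPM in Scr, with a log2 fold change of 0.49 ± 0.22. Kif24, which acts at centrioles and restrains the growth of cilia, ranged over 9.21 to 10.4 CPM in Mir and 6.21 to 8.63 CPM in Scr, with a log2 fold change of 0.41 ± 0.20. Kif24 was the one mitotic or centrosomal gene with its lowest value in Scr replicate 1.

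Kif2b, a further spindle kinesin, was listed at 0 counts in all 6 libraries. A count of 0 allows up to 3 counts, or 0.180 to 0.236 CPM in these libraries, and this limit covers counting error only.

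Genes that work with the mitotic kinesins showed the same side. Of 20 listed partners, all 20 had a higher fitted level in Mir, with a median of 0.39, and the Mir libraries lay above the Scr libraries for 10, beside 9.9% of all genes. None was called by edgeR's quasi-likelihood test, and DESeq2 called 3 of them higher, beside 1.6% of all genes. Racgap1, which forms centralspindlin together with Kif23, had 382, 370 and 417 CPM in Mir and 247, 224 and 253 CPM in Scr, with a log2 fold change of 0.69 ± 0.08. Its adjusted p was 0.159 in edgeR's quasi-likelihood test and 8.31e-09 in DESeq2. Incenp, the scaffold of the chromosomal passenger complex, had a log2 fold change of 0.69 ± 0.16, at an adjusted p of 0.206 in edgeR's quasi-likelihood test and 0.0111 in DESeq2. The partners share the same libraries and dividing cells with the mitotic kinesins, so they are not separate observations. Scr replicate 2 was again the lowest library for most of them. Tpx2, for example, had 311, 316 and 352 CPM in Mir and 231, 146 and 247 CPM in Scr. Partner fold changes without that library are not given here.

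The 15 cargo and neurite kinesins had no common direction. Their fitted level was higher in Mir for 6 and lower for 9, the median log2 fold change being -0.07 and the range -0.40 to 0.52. The Mir libraries lay above the Scr libraries for 3 of them, Kif3b, Kif16b and Kif5b, beside 9.9% of all genes. They lay below the Scr libraries for 1, Kif5c, beside 10.3% of all genes. Summed CPM was 1841, 1881 and 1683 in the Mir libraries against 2000, 1933 and 1896 in the Scr libraries. All 3 Mir sums lay below all 3 Scr sums, by less than the spread within the Mir group. Scr replicate 2 was the highest library for 7 of the 15. The median log2 fold change of the group was -0.01 without Scr replicate 2.

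Sums of cortical neuron markers were lower in Mir than in Scr, with no overlap of the libraries. Taken singly, 2 of the 12 markers had all Mir libraries below all Scr libraries, beside 10.3% of all genes. Neurod6, the largest part of each sum, overlapped between groups, at 2253, 1922 and 1891 CPM in Mir and 2399, 1981 and 2264 CPM in Scr. The mean was higher in Mir for 2 of 12 such markers, whose summed level was 5354, 4838 and 5506 CPM in Mir and 6002, 7660 and 6312 CPM in Scr. Markers of inhibitory neurons, which arise outside the cortex, summed to 131, 111 and 319 CPM in Mir and 249, 983 and 350 CPM in Scr, with 0 of 8 higher in Mir. Endothelial markers summed to 1.20, 1.47 and 32.2 CPM in Mir and 72.9, 194 and 11.3 CPM in Scr, with 0 of 7 higher in Mir. Red blood cell genes summed to 52.8, 1.59 and 578 CPM in Mir and 245, 849 and 563 CPM in Scr, with 0 of 6 higher in Mir. Microglia markers summed to 14.3, 14.7 and 42.3 CPM in Mir and 20.3, 41.0 and 54.2 CPM in Scr, with 1 of 7 higher in Mir. The endothelial markers Pecam1, Cdh5 and Cldn5 were at 0 CPM in Mir replicates 1 and 2, and no marker of any list was at 0 in all 6 libraries. Scr replicate 2 was thus the library with the highest sums for both neuron types, endothelium and red blood cells, and their part in the kinesin values was not tested.

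Kinesin-1, the main motor of fast transport along axons, has 3 alternative heavy chains in the mouse, and they took different positions. Kif5c, the heavy chain enriched in neurons, had 228, 222 and 213 CPM in Mir and 267, 329 and 275 CPM in Scr. All 3 Mir libraries lay below all 3 Scr libraries, and the Mir values were close together. Kif5c (ENSMUSG00000026764, chr2:49619298-49774778, plus strand) averaged 221 ± 7.33 CPM in Mir and 290 ± 33.9 CPM in Scr (SD, n = 3 each). The log2 fold change was -0.39 ± 0.10 with a p of 0.0061, and the adjusted p was 0.218 in edgeR's quasi-likelihood test. DESeq2, with an adjusted p of 0.0311, called it lower, at a log2 fold change of -0.40. Without Scr replicate 2, the highest library, the edgeR log2 fold change of Kif5c was -0.29.

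Kif5a, the heavy chain found almost wholly in neurons, had 48.9, 55.2 and 67.1 CPM in Mir and 63.2, 100 and 62.3 CPM in Scr. Its groups overlapped, because Mir replicate 3 lay above Scr replicates 1 and 3. Kif5a (chr10:127225696-127263348, minus strand) had a log2 fold change of -0.40 ± 0.21 and an adjusted p of 0.424 in edgeR's quasi-likelihood test. The value depended on single libraries, with a log2 fold change of -0.13 without Scr replicate 2 and -0.54 without Mir replicate 3. Without both of these libraries it was -0.26.

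Kif5b, the heavy chain present in nearly all cell types, had 265, 257 and 238 CPM in Mir and 238, 237 and 236 CPM in Scr. The Mir values lay above the Scr values, but Mir replicate 3 exceeded Scr replicate 1 by far less than the spread among the Mir libraries. Kif5b averaged 253 ± 13.8 CPM in Mir and 237 ± 1.03 CPM in Scr (SD, n = 3 each), with a log2 fold change of 0.10 ± 0.08 and an adjusted p of 0.609 in edgeR's quasi-likelihood test. Per kb of exon, the levels were 31.0 CPM in Mir and 40.7 in Scr for Kif5c, 31.7 in Mir and 29.7 in Scr for Kif5b, and 8.17 in Mir and 10.8 in Scr for Kif5a. On that scale Kif5c stood above Kif5b in Scr, while both were nearly level in Mir.

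**Figure D3:**
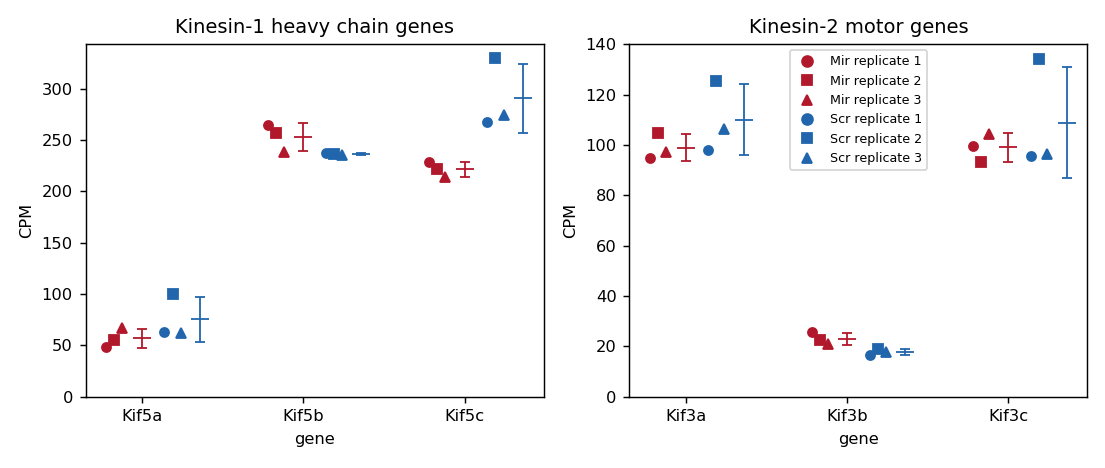
CPM (vertical axes, from 0) of the 3 kinesin-1 heavy chain genes (left) and the 3 kinesin-2 motor genes (right) in each library. Red symbols are Mir and blue symbols Scr, with horizontal dashes and bars for the mean ± SD of 3 libraries beside them. Kif5c lies at 213 to 228 CPM in Mir and 267 to 329 CPM in Scr with no overlap, and Kif3b at 20.99 to 25.6 CPM in Mir and 16.4 to 18.98 CPM in Scr.

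Since the hairpin encodes a microRNA, the 3′ UTRs of the kinesins were read for matches to its seed, the bases that pair with a target. The strand after the hairpin's loop, read from the oligonucleotide in the labels' protocols, is shown with its seed (bases 2 to 8) in capitals.
miR-3607 strand after the loop: gCATGTGAtgaagcaaatcagt
The matches searched were TCACATG and CACATGA in the 3′ UTR of each gene's transcript of longest coding sequence (GENCODE M21). A match was present in 6 of the 33 kinesin genes whose chosen transcript gave a 3′ UTR of at least 8 bases (18.2%), beside 17.3% of 12749 tested genes. Kif3a was the member not searched under this choice of transcript. These 6 were Kif15 and Kif18b among the mitotic kinesins, Kif1a, Kif1c and Kif5c among the cargo kinesins, and Kif26b. The fitted level was higher in Mir for 4 of them and lower for 2, Kif1a and Kif5c. Kif5c and Kif26b had 2 matches each, and those of Kif5c lie in a 3′ UTR of 3621 bases. The sites of Kif5c, and those of Kif15 and Kif18b on the other side of 0, are printed as 30 bases each with the match in capitals.
Kif5c, chromosome 2, from base 2459 of its 3′ UTR: gctccatttcgTCACATGtttcacattgct
Kif5c, chromosome 2, from base 2790 of its 3′ UTR: aagacggagaaTCACATGgtgaagaattca
Kif15, chromosome 9, from base 69 of its 3′ UTR: attgtatttgcTCACATGgtagaactaaac
Kif18b, chromosome 11, from base 552 of its 3′ UTR: cttctccacatTCACATGtattgtatttat
The median log2 fold change was 0.28 for the 6 kinesins with a match and 0.20 for those without. A match is a description of the letters, and pairing was not measured.

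Kinesin-2 carries cargo in cilia and in neurons, as a dimer of Kif3a with Kif3b or Kif3c. Kif3b, shared by cilia and axons, had 25.6, 22.6 and 20.99 CPM in Mir and 16.4, 18.98 and 17.8 CPM in Scr. Its 3 Mir libraries lay above its 3 Scr libraries. Kif3b (chr2:153291413-153333390, plus strand) averaged 23.0 ± 2.32 CPM in Mir and 17.7 ± 1.28 CPM in Scr (SD, n = 3 each), with a log2 fold change of 0.38 ± 0.14 and an adjusted p of 0.309 in edgeR's quasi-likelihood test.

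Kif3a, the common subunit of both dimers, had 94.8, 105 and 97.2 CPM in Mir and 98.2, 126 and 107 CPM in Scr. The groups overlapped, with Scr replicate 2 the highest. Its location is chr11:53567379-53601967, plus strand, and its log2 fold change was -0.16 ± 0.11, and -0.05 without that library. Kif3c, the subunit found mostly in neurons, had 99.7, 93.2 and 104 CPM in Mir and 95.7, 134 and 96.4 CPM in Scr. Scr replicate 2 stood above all other libraries, and the log2 fold change of Kif3c (chr12:3365132-3406494, plus strand) was -0.14 ± 0.15 with all libraries and 0.05 without that one. Antisense genes overlap 40.7% of the exon bases of Kif3c, so its counts are uncertain.

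Kinesin-3 motors carry vesicles. Kif1a, which carries precursors of synaptic vesicles and dense-core vesicles, had 174, 173 and 175 CPM in Mir and 171, 196 and 180 CPM in Scr. The Mir values were almost equal and lay within the Scr range. Kif1a (chr1:93015464-93101951, minus strand) had a log2 fold change of -0.07 ± 0.09 and an adjusted p of 0.747 in edgeR's quasi-likelihood test. Kif1b, whose isoforms carry mitochondria or vesicles, had 184, 209 and 185 CPM in Mir and 226, 230 and 202 CPM in Scr. Mir replicate 2 lay above Scr replicate 3, so that the groups overlapped. The log2 fold change of Kif1b (chr4:149176319-149307693, minus strand) was -0.19 ± 0.09, with an adjusted p of 0.407 in edgeR's quasi-likelihood test.

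The remaining kinesin-3 genes were low. Kif16b, an endosome motor, ranged over 6.06 to 6.82 CPM in Mir and 3.78 to 5.01 CPM in Scr, and its groups did not overlap. Its log2 fold change of 0.52 ± 0.22 was the highest of the cargo group, with a p of 0.0466 and an adjusted p of 0.336 in edgeR's quasi-likelihood test. Kif13a and Kif13b, which carry membrane cargo to the cell surface, had log2 fold changes of -0.14 ± 0.27 and 0.17 ± 0.16. Kif1c, a motor of dense-core vesicles and of RNA, ranged over 1.91 to 3.25 CPM in Mir and 1.89 to 2.82 CPM in Scr, with a log2 fold change of 0.22 ± 0.33. The groups of Kif13a, Kif13b and Kif1c overlapped.

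Kinesins that act on the microtubules of growing processes were abundant. Kif21b, which restrains microtubule growth in neurons, had 325, 332 and 245 CPM in Mir and 401, 240 and 301 CPM in Scr. Its lowest and highest values were both in Scr, so the Mir values lay within the Scr range. Kif21b (chr1:136131389-136177998, plus strand) averaged 301 ± 48.5 CPM in Mir and 314 ± 81.2 CPM in Scr (SD, n = 3 each), with a log2 fold change of -0.06 ± 0.19 and an adjusted p of 0.916 in edgeR's quasi-likelihood test. Kif21a, its close relative, ranged over 222 to 322 CPM in Mir and 216 to 323 CPM in Scr, with a log2 fold change of 0.03 ± 0.18.

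Kif2a, which shortens microtubules and limits the branching of axons, had 70.5, 50.7 and 81.0 CPM in Mir and 67.7, 68.0 and 107 CPM in Scr. Its groups overlapped, with the highest value in Scr replicate 3. The log2 fold change of Kif2a (chr13:106958996-107022126, minus strand) was -0.27 ± 0.23 with all libraries. It was -0.0018 without Scr replicate 3 and -0.09 without Mir replicate 2. On the opposite strand, Dimt1 overlaps 19.2% of its exon bases. Kif2a also has roles at spindle poles, and its value lay outside the range of the 12 mitotic and centrosomal kinesins. Kif17, which carries receptors in dendrites, did not pass the count minimum, with 0, 3 and 1 counts in Mir and 0, 3 and 0 counts in Scr.

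Partners of the cargo kinesins were as divided as the motors. Of 29 listed partner symbols, which name Kif1bp also as Kifbp, 27 were tested. Of these 27, 15 had a higher and 12 a lower fitted level in Mir, at a median log2 fold change of 0.02. Kif1bp, counted among the 15, is also a member of the kinesin set. Fez2, a relative of the kinesin-1 adaptor Fez1, had a log2 fold change of -0.49 ± 0.12, at an adjusted p of 0.212 in edgeR's quasi-likelihood test and 0.0366 in DESeq2. Hap1, an adaptor between kinesin-1 and its cargo, had a log2 fold change of 0.62 ± 0.18, at an adjusted p of 0.240 in edgeR's quasi-likelihood test. None of the tested partners was called by edgeR. DESeq2 called Fez2 alone, lower in Mir, beside 2.21% of all genes.

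**Figure D4:**
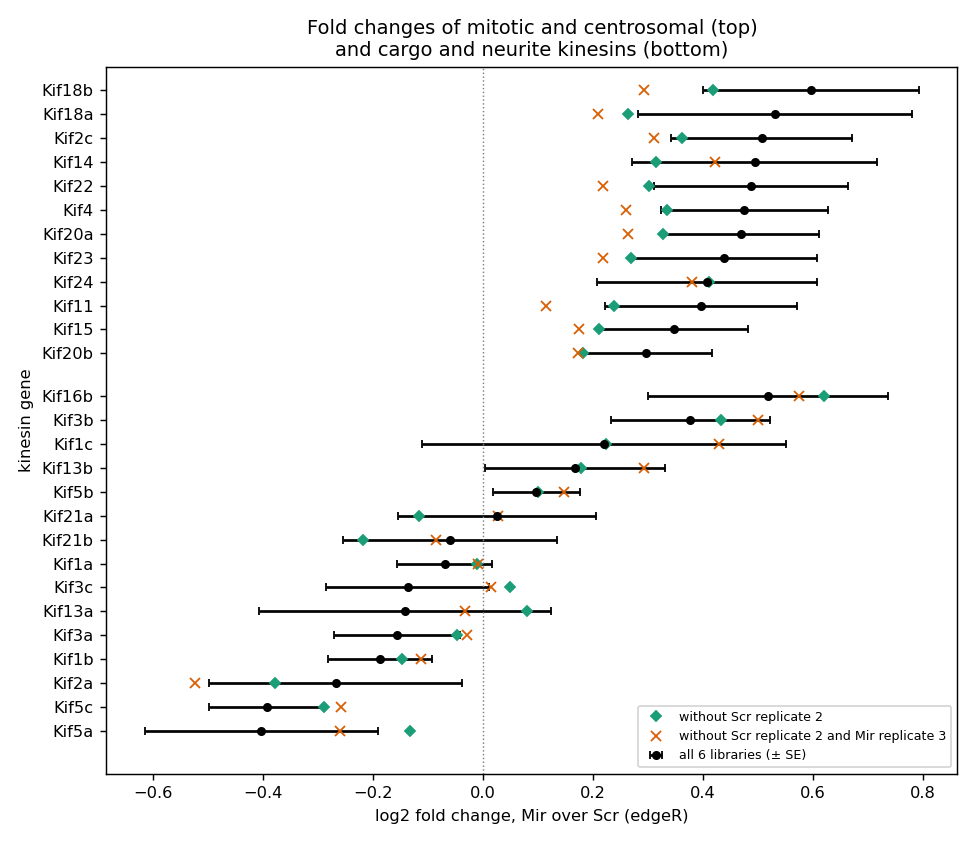
Log2 fold change, Mir over Scr, from edgeR (horizontal axis) for the 12 mitotic and centrosomal kinesins (top) and the 15 cargo and neurite kinesins (bottom). Black points with bars are values ± SE from all 6 libraries, green diamonds values without Scr replicate 2, and orange crosses values without Scr replicate 2 and Mir replicate 3. All 12 mitotic values stay above 0 in these settings, with medians of 0.47, 0.31 and 0.24.

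The Mir and Scr libraries overlapped for each of the 6 ciliary and other kinesins, several of which varied widely within a group. The fitted level was higher in Mir for 5 of them, at a median log2 fold change of 0.19, and none had an unadjusted p under 0.05. Without Scr replicate 2 they split into 3 higher and 3 lower, at a median of 0.05, and in limma-voom the median was 0.07. Kif26a, a kinesin without motor activity that acts in signalling during neural development, had 17.5, 12.8 and 51.7 CPM in Mir and 45.2, 52.9 and 27.6 CPM in Scr. Mir replicates 1 and 2 were low, while Mir replicate 3 stood beside the highest Scr values. The log2 fold change of Kif26a (chr12:112146208-112181747, plus strand) was -0.62 ± 0.50, with an adjusted p of 0.602 in edgeR's quasi-likelihood test. Leaving out 1 library at a time gave values from -0.26, without Mir replicate 2, to -1.48, without Mir replicate 3.

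Kif26b, its relative without motor activity, ranged over 34.6 to 94.9 CPM in Mir and 27.4 to 57.1 CPM in Scr. Its log2 fold change was 0.70 ± 0.38 with an adjusted p of 0.445 in edgeR's quasi-likelihood test, and its groups overlapped. With Mir replicate 1 left out the value was 0.35, and with Mir replicate 3 left out it was 0.997. Kif7, a regulator of Hedgehog signalling at the tip of the cilium, ranged over 10.2 to 15.6 CPM in Mir and 5.80 to 14.7 CPM in Scr, with a log2 fold change of 0.24 ± 0.34. Other genes overlap 20.3% of its exon bases, so its counts are uncertain too. Kif27, a relative of Kif7, had a log2 fold change of 0.03 ± 0.32. Kif6 and Kif9, kinesins of motile cilia, had log2 fold changes of 0.19 ± 0.48 and 0.20 ± 0.48 at under 3 CPM in every library.

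Kif6 was also the member nearest to the count minimum, with 25, 8 and 17 counts in Mir and 14, 12 and 15 counts in Scr. Kif19a, which trims the length of cilia, lay just outside it, with 7, 10 and 10 counts in Mir and 9, 8 and 8 counts in Scr. Kif12 and Kif28 were listed at 0 counts in all 6 libraries. Kif1bp, which binds kinesins and holds them off microtubules, ranged over 150 to 184 CPM in Mir and 152 to 155 CPM in Scr, with overlapping groups. Its log2 fold change was 0.14 ± 0.10.

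Levels were also compared between kinesin genes per kb of exon. The highest was Kif20a, at 64.0 CPM per kb in Mir and 46.2 in Scr, and Kif22 and Kif21a came after it in both groups. The rank of Kif20a is uncertain, since 29.3% of its exon bases overlap Cdc23 on the opposite strand. Kif22 was at 58.5 CPM per kb in Mir and 41.7 in Scr, and Kif21a at 43.0 in Mir and 42.3 in Scr. The fourth level was that of Kif2c in Mir, at 36.7 CPM per kb, while in Scr it was that of Kif5c, at 40.7. The means of Kif20a and Kif22 differed by less than their spread over libraries in either group, though Kif20a was the higher gene within each library. Kif6 was the lowest of the 34, at 0.180 CPM per kb in Mir and 0.158 in Scr.

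Other microtubule motors gave no common direction. Of 5 kinesins outside the symbol rule, 3 had a higher and 2 a lower fitted level in Mir, and none had an unadjusted p under 0.05. The Mir libraries lay above the Scr libraries for 0 of the 5, beside 9.9% of all genes, and below for 0, beside 10.3%. These kinesins included Kifc3, a minus-end kinesin, at a log2 fold change of -1.34 ± 0.66, and Cenpe, the kinetochore kinesin, at 0.35 ± 0.19. Kifc3 was low, with 1.39, 0.77 and 3.20 CPM in Mir and 1.81, 7.95 and 3.66 CPM in Scr. The log2 fold changes of the others were 0.04 ± 0.26 for Kifc1, 0.18 ± 0.22 for Kifc2 and -0.15 ± 0.29 for Kifc5b. The dynein motor, which runs towards the other end of the microtubule, had 20 listed genes, of which 7 were higher and 13 lower in Mir, at a median log2 fold change of -0.08. Its regulator Ndel1 was at -0.33 ± 0.09 and its light chain Dynll1 at -0.22 ± 0.08, with adjusted p values of 0.236 and 0.279 in edgeR's quasi-likelihood test.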

How the data were processed

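Libraries of the sorted cells' RNA came from the SMART-seq v4 kit and gave single reads of 50 bp, per the labels' protocols. The values are whole-number read counts per gene, deposited by the authors without normalization. The build mm10 (GRCm38) and the tools DESeq2 1.18.1, HTSeq 0.11.0 and HISAT2 2.1.0 are named in the submitters' processing notes, and the strand setting is not given in the sources used here. The 5 summary lines of each file, which name no gene, were left out of library sizes. They listed 28.8 to 31.6% of reads as in no feature and 39.3 to 44.4% as not uniquely aligned, and 21.9 to 23.6% of listed reads were in genes.

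Symbols and coordinates came from GENCODE M21, which named 54079 of the 54146 genes. The edgeR 4.0.16 quasi-likelihood F test (two-sided) in R 4.3.3 used group as its sole term, TMM normalization (factors 0.991 to 1.01) and the filterByExpr filter, which left 16897 genes, all 34 kinesins among them. Benjamini-Hochberg adjustment covered these genes, and 0.05 was the threshold. The biological coefficient of variation was 23.6%. Since the test returns no standard error, it was derived as the absolute log2 fold change divided by the square root of the F statistic. DESeq2 1.42.0, tried as an alternative, gave 2302 genes no adjusted p. Further alternatives were limma-voom (limma 3.58.1), no filter on low counts, a replicate block and leaving out libraries. The edgeR fit was also run with DESeq2 size factors, and with a filter of at least 10 counts in 3 libraries.

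Full values are given for the 8 kinesins with the smallest p in each direction and for Kif11, Kif20a, Kif23, Kif5a, Kif5b, Kif5c, Kif1a and Kif21b. Partner lists are given by counts and their 2 genes with the smallest p. The members and lists were chosen with earlier results of these data known.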

Additional observations from a re-analysis of the deposited data

How the results depend on the processing

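Over the 34 kinesins and all alternatives, 426 of 442 fold changes kept their direction and their side of the threshold, 1 came to pass it (Kif5c in DESeq2, -0.40) and 15, in 8 genes, changed sign. In DESeq2, Kif6 and Kif9 had no adjusted p and entered the 426 by direction alone. Without both Mir replicate 3 and Scr replicate 2, Kif3c was at 0.014 and Kif27 at -0.21. Leaving out 1 library at a time gave -0.23 to 0.048 for Kif3c, -0.044 to 0.55 for Kif7, -0.29 to 0.079 for Kif13a, -0.12 to 0.54 for Kif9, -0.19 to 0.53 for Kif6, -0.22 to 0.14 for Kif21b, -0.12 to 0.15 for Kif21a and -0.18 to 0.12 for Kif27. The cause was not tested. The 12 mitotic and centrosomal kinesins were higher in Mir in every alternative.

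The number of genes called among all genes was 1, against 31 with no filter on low counts, 555 in DESeq2, 0 in limma-voom, 0 with a replicate block, 29 without Scr replicate 2 and Mir replicate 3, and 0 to 2 with 1 library left out. It stayed at 1 with DESeq2 size factors in edgeR, and with the filter of at least 10 counts in 3 libraries. The number of kinesins called was 0, against 1 in DESeq2 and 0 in the others. Libraries of the same number correlated at 0.25, -0.15 and -0.09 in their deviations from the group means, so the numbers were not taken as pairs. The precision of a fold change rests on 3 pools per group with a biological coefficient of variation of 23.6%, and for low genes such as Kif6, with 8 to 25 counts per library, on counting error as well.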
